A study of Homo sapiens with 9 samples.

Results

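The 8 sympathoadrenal lineage transcription factors PHOX2A, HAND1, HAND2, GATA2, GATA3, ISL1, TLX2 and NHLH2 were followed across the 9 expression arrays of this study. They were found as the probe sets that the array's annotation pairs with one of these 8 symbols, which gave 14 of the 22215 probe sets tested and 8 of the 11963 genes with a probe set of their own. The arrays hold total RNA labelled as from IMR32, a neuroblastoma line of sympathetic lineage. By their labels, 3 arrays measured IMR32 cells with stable expression of the 69-kDa form of choline acetyltransferase (ChAT), the enzyme that makes acetylcholine, 3 measured cells with stable expression of the 82-kDa form, and 3 were labelled as wild-type IMR32 without either. The comparison asks how expression differs with either form. The submitters describe the 3 arrays of a group as biological replicates and do not say whether these were separate cultures. The p-values therefore set each difference only against the spread between these samples, pooled over the 3 groups. Because each form came in a line of its own, an effect of the form and one of the line cannot be told apart. Neither the vector and its promoter nor the number of clones in a line is given in the sources used here.

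The sympathoadrenal lineage is the branch of the neural crest that gives rise to sympathetic neurons and the chromaffin cells of the adrenal medulla, and it is the lineage from which neuroblastoma arises. BMP signals near the dorsal aorta start a network of transcription factors in these precursors. The paired-type homeodomain factor PHOX2A, the basic helix-loop-helix factor HAND2, the zinc finger factors GATA2 and GATA3 and the LIM homeodomain factor ISL1 act in it on one another and on genes of noradrenaline synthesis, vesicles and survival. In noradrenergic neuroblastoma several of these factors bind each other's enhancers and keep cell identity.

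Genes other than the members put the label of the wild-type arrays in doubt. MYCN, the oncogene amplified in IMR32, read 62.5, 120 and 99.97 there by its brightest probe set, against 4181 to 6118 in the lines. Epithelial markers were the higher ones on those arrays: the summed intensity of 15 measured markers was 6886 to 7685 there, 856 to 981 in the 69-kDa line and 859 to 1012 in the 82-kDa line. Of these 15 markers 8 were lower and 0 higher in each line (limma, also 0 at an unadjusted p under 0.05), with KRT19, a keratin, 32.5-fold lower in the 82-kDa line and 31.7-fold lower in the 69-kDa line, at 29.1 to 33.1 on the arrays of the lines. Markers of sympathetic neurons and neuroblastoma, MYCN among them, summed to 2798 to 3372 on the arrays labelled wild type. They summed to 14511 to 23060 in the 69-kDa line and to 15952 to 23434 in the 82-kDa line. Of these 14 markers 11 were higher and 1 lower in the 82-kDa line, and 12 and 1 in the 69-kDa line. Of all genes 11.8% and 11.7% were higher and 18.5% and 17.7% lower in the 82-kDa and the 69-kDa line. The part of this in each difference from wild type was not tested, and the same 3 arrays serve both lines as the reference. The mean difference between the 2 lines does not use those 3 arrays. Its p-values and intervals do, because the main fit pools the spread over all groups. Array medians were 134 to 142.7 on the linear scale, the lower quartiles 55.9 to 62.7, and a value under its array's lower quartile is called dim here. In bulk RNA, fewer cells of a type and less RNA per cell cannot be told apart.

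RefSeq start sites (GRCh38.p14) with 250 bases upstream were found for all 8 genes, 15 windows in all. Of these, 4 are shown because their genes had the largest differences from the arrays labelled wild type and their windows differ in base composition. Letters in capitals match, on either strand, the E-box CANNTG bound by basic helix-loop-helix factors such as HAND1, HAND2 and NHLH2, the GATA words AGATAA or AGATAG and the same words beginning with T, or the homeodomain words TAATTA or TAATTG. Each is written 5′ to 3′ on the strand of its gene, ending at the base before the start.
NHLH2, chr1:115841127-115841376, minus strand, the more upstream of 2 listed starts: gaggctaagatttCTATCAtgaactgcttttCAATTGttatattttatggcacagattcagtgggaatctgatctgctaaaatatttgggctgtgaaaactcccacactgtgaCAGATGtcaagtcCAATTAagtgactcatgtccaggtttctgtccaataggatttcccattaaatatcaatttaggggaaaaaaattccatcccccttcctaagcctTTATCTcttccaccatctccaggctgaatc
ISL1, chr5:51383198-51383447, plus strand: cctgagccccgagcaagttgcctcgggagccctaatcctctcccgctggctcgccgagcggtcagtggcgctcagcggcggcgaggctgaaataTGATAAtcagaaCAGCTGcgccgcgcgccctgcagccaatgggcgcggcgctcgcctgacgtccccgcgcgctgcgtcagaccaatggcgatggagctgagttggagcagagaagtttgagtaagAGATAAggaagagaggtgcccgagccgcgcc
PHOX2A, chr11:72244177-72244426, minus strand: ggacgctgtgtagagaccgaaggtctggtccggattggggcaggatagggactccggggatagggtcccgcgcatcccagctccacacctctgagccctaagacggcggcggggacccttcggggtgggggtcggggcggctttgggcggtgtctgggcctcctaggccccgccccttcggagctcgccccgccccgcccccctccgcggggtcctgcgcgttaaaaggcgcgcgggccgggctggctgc
TLX2, chr2:74514200-74514449, plus strand: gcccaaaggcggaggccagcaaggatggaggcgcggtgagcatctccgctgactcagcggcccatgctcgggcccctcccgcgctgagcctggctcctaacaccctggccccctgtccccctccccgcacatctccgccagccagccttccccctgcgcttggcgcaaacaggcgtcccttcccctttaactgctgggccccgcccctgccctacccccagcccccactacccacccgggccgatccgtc
The NHLH2 window was AT-rich, with 39.2% G and C against a median of 58.0% over all 35116 windows, and held 2 E-boxes, 2 GATA words and 1 homeodomain word. The ISL1 window held 65.2% G and C, 1 E-box and 2 GATA words. The PHOX2A and TLX2 windows, with 73.2% and 71.6% G and C, held 0 matches of any kind. Over the 15 windows of the 8 genes, 7 held an E-box, 4 a GATA word and 2 a homeodomain word, against 61.8%, 22.3% and 10.4% of all windows. In HAND2 1 match overlapped a match of another motif, and none did so in the 4 windows shown. A match is a description of the letters and not a binding site.

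Against the arrays labelled wild type, 7 of the 8 genes were higher in both ChAT lines and GATA2 was not. By limma at an adjusted p under 0.05, 12 of the 14 probe sets passed in the 82-kDa line, where 26.8% of all passed: 11 were higher (11.0% of all) and 1 lower (15.7% of all). In the 69-kDa line the same 11 were higher and the same 1 lower, where 26.2% of all passed, 10.9% higher and 15.3% lower. The 3 arrays of a line and the 3 labelled wild type did not overlap for those 12 probe sets in either comparison, while 20.9% and 22.5% of all probe sets lay wholly higher in the 82-kDa and the 69-kDa line and 21.3% and 21.2% wholly lower. The median log2 difference of the 14 was 2.69 for the 82-kDa and 2.45 for the 69-kDa line, against 0.062 and 0.058 over all probe sets.

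**Figure D1:**
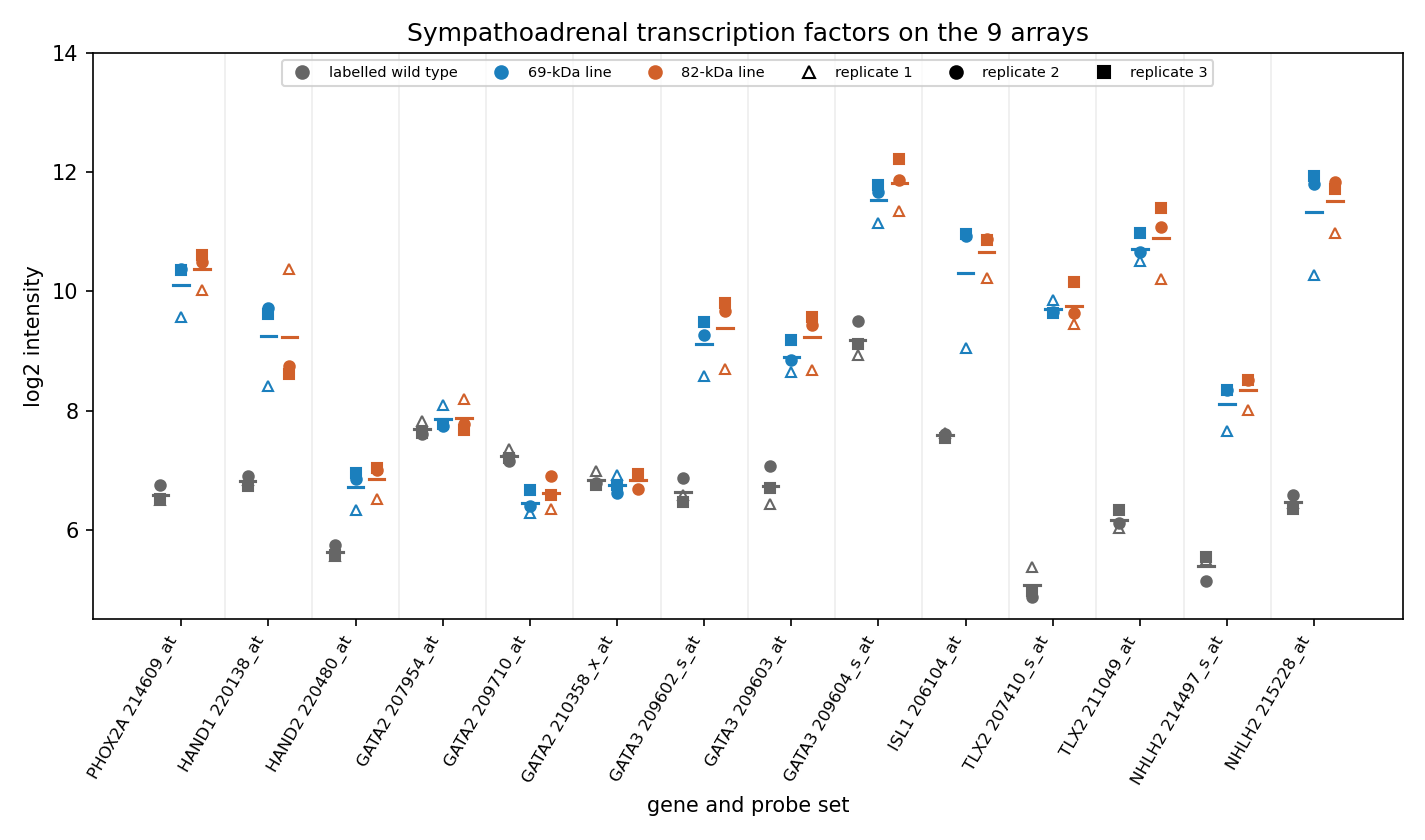
Log2 intensity (vertical axis) of the 14 probe sets of the 8 factors (horizontal axis) on each array, with group means as bars, colour for the group and symbol shape for the replicate number. The 69-kDa and 82-kDa arrays lie above all 3 arrays labelled wild type for 11 probe sets, GATA2 is the exception, and HAND1 and ISL1 have the widest spread within a line.

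PHOX2A, which switches on genes of noradrenaline synthesis, was measured by 1 probe set (214609_at). It read 1035, 1448 and 1572 on replicates 1, 2 and 3 of the 82-kDa line, 761, 1327 and 1315 on those of the 69-kDa line, and 90.8, 108 and 91.2 on the arrays labelled wild type, an order of replicates kept for every gene. All 6 arrays of the lines were far above the other 3, and replicate 1 was the lowest of each line. The fitted fold was 13.8 in the 82-kDa line (log2 3.79, SE 0.24, adjusted p = 7.4e-06) and 11.4 in the 69-kDa line (log2 3.51, SE 0.24, adjusted p = 1.2e-05).

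TLX2 is a homeobox gene of neural crest derivatives with a known role in enteric neurons, and its 2 probe sets gave like differences. By 211049_at it read 1186, 2157 and 2707 on the 82-kDa arrays, 1461, 1615 and 2021 on the 69-kDa arrays, and 65.2, 69.3 and 80.9 on the arrays labelled wild type. By 207410_s_at it read 705, 794 and 1145 on the 82-kDa arrays, 927, 803 and 794 on the 69-kDa arrays, and 41.6, 29.4 and 31.5 on the arrays labelled wild type, where it was dim on all 3. The lines' readings overlapped each other and stayed clear of the rest for both. The folds were 26.7 and 25.5 in the 82-kDa line (log2 4.74, SE 0.27, adjusted p = 4.8e-06 and log2 4.67, SE 0.19, adjusted p = 7.7e-07, in that order). In the 69-kDa line they were 23.5 and 24.8 (adjusted p = 6.4e-06 and 7.6e-07). Among all 22215 probe sets these were places 11 and 14 from the highest difference in the 82-kDa line, and 14 and 11 in the 69-kDa line.

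NHLH2, a neuronal basic helix-loop-helix factor, had the largest difference of any member. By 215228_at it read 2023, 3660 and 3367 on the 82-kDa arrays, 1243, 3572 and 3920 on the 69-kDa arrays, and 87.3, 96.3 and 81.8 on the arrays labelled wild type. This put it 33.1-fold higher in the 82-kDa line (log2 5.05, 95% interval 4.11 to 5.99, adjusted p = 3.9e-05) and 29.4-fold higher in the 69-kDa line (log2 4.88, 3.93 to 5.82, adjusted p = 4.6e-05), places 8 and 7 from the top. Its other probe set, 214497_s_at, gave a smaller difference. That one read 259, 367 and 364 on the 82-kDa arrays, 201, 326 and 324 on the 69-kDa arrays, and 45.0, 35.3 and 46.9 on the arrays labelled wild type, all 3 of them dim. Its folds were 7.73 (log2 2.95, SE 0.22, adjusted p = 2.3e-05) and 6.58 (log2 2.72, SE 0.22, adjusted p = 3.7e-05), so the 2 probe sets differed by 2.10 in their log2 difference for the 82-kDa line and shared its direction.

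GATA3, a zinc finger factor that sympathetic neurons and chromaffin cells need, was higher by all 3 of its probe sets. The brightest, 209604_s_at, read 2604, 3762 and 4785 on the 82-kDa arrays, 2263, 3243 and 3536 on the 69-kDa arrays, and 488, 723 and 555 on the arrays labelled wild type. The groups did not overlap, and here too replicate 1 was the lowest array of each line. The fold was 6.21 in the 82-kDa line (log2 2.63, SE 0.26, adjusted p = 0.00010) and 5.10 in the 69-kDa line (log2 2.35, SE 0.26, adjusted p = 0.00020). The other 2 GATA3 probe sets, 209602_s_at and 209603_at, gave folds of 6.73 and 5.65 in the 82-kDa line and 5.55 and 4.46 in the 69-kDa line, and their largest adjusted p was 0.00053.

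GATA2, a zinc finger factor shared by sympathetic precursors, blood progenitors and trophoblast, had 3 probe sets that disagreed. By 209710_at it was lower in the lines: 81.5, 119 and 96.4 in the 82-kDa line and 77.6, 84.8 and 101 in the 69-kDa line, against 163, 142 and 148 on the arrays labelled wild type. It was 1.54-fold lower in the 82-kDa line (log2 -0.62, SE 0.15, adjusted p = 0.015), a call lost without replicate 1 labelled wild type (log2 -0.57, adjusted p = 0.056), and 1.73-fold lower in the 69-kDa line (log2 -0.79, SE 0.15, adjusted p = 0.0048). The brightest GATA2 probe set, 207954_at, read 292, 219 and 204 on the 82-kDa arrays, 272, 213 and 219 on the 69-kDa arrays, and 228, 194 and 198 on the arrays labelled wild type, with replicate 1 highest in every group. Its log2 differences were 0.19 and 0.18 (adjusted p = 0.40 and 0.45), with a 95% interval of -0.16 to 0.54 in the 82-kDa line. The probe set 210358_x_at, whose suffix marks probes that can match other transcripts, read 98.1 to 127 on all 9 arrays and passed in neither comparison (adjusted p = 0.99 and 0.64).

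ISL1, which sympathetic neuroblasts need for their survival, read 1195, 1894 and 1871 on the 82-kDa arrays, 528, 1944 and 1988 on the 69-kDa arrays, and 198, 195 and 186 on the arrays labelled wild type (206104_at). Replicates 2 and 3 of both lines lay within 1871 to 1988, and replicate 1 was lower, most so in the 69-kDa line. The fold was 8.39 in the 82-kDa line (log2 3.07, SE 0.46, adjusted p = 0.0012) and 6.58 in the 69-kDa line (log2 2.72, SE 0.46, adjusted p = 0.0024). Without replicate 1 of the 69-kDa line that fold was 10.2 (adjusted p = 1.3e-05).

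HAND2 and HAND1 are paralogous basic helix-loop-helix factors of the sympathetic lineage and of the heart. HAND2 (220480_at) read 91.9, 129 and 131 on the 82-kDa arrays, 80.2, 116 and 124 on the 69-kDa arrays, and 47.1, 53.8 and 47.7 on the arrays labelled wild type, all 3 of them dim. It had the smallest difference of the 7 higher genes, at 2.34-fold (log2 1.23, SE 0.19, adjusted p = 0.0015) and 2.12-fold (log2 1.09, SE 0.19, adjusted p = 0.0029). HAND1 (220138_at) read 1323, 428 and 393 on the 82-kDa arrays, 343, 843 and 792 on the 69-kDa arrays, and 114, 120 and 106 on the arrays labelled wild type. All 6 arrays of the lines were above the other 3, but replicate 1 was the highest array of the 82-kDa line and the lowest of the 69-kDa line. HAND1 was 5.36-fold higher in the 82-kDa line (log2 2.42, SE 0.48, adjusted p = 0.0058) and 5.41-fold higher in the 69-kDa line (log2 2.43, SE 0.48, adjusted p = 0.0056). Without replicate 1 of the 82-kDa line its fold there was 3.63 (adjusted p = 0.0054).

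**Figure D2:**
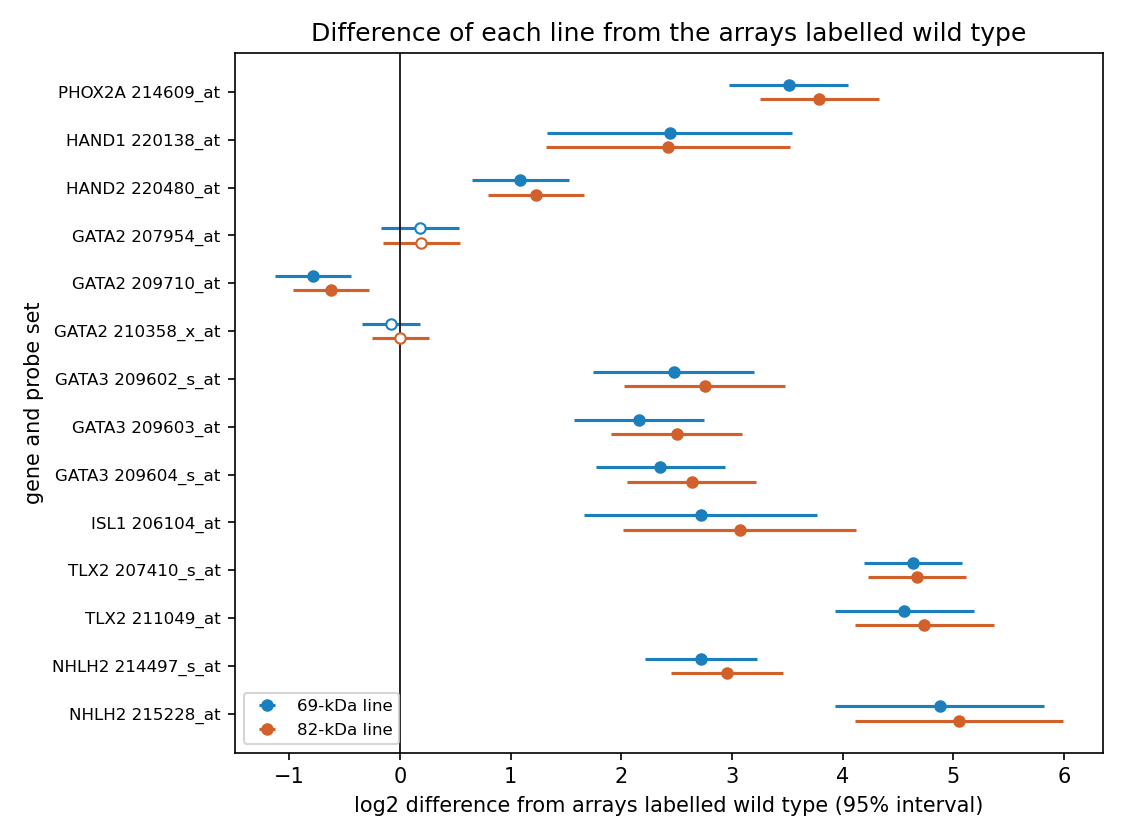
Log2 difference from the arrays labelled wild type (horizontal axis) for each probe set of the 8 factors (vertical axis), with 95% intervals from limma; open symbols did not pass an adjusted p of 0.05. Both TLX2 probe sets and NHLH2 by 215228_at lie farthest to the right, GATA2 lies at or below 0.2, and the intervals of the 2 lines overlap for every probe set.

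Between the 2 lines none of the 8 factors passed the test. By limma 0 of the 14 probe sets and 0% of all probe sets passed, and at an unadjusted p under 0.05 there were 0 of the 14 (the smallest was 0.22) and 733 of all. The arrays of the 2 lines overlapped for all 14, while 3.18% of all probe sets lay wholly higher and 3.66% wholly lower in the 82-kDa line. The 82-kDa mean was the higher one for 13 of the 14, with a median log2 difference of 0.18 against 0.0040 over all probe sets. The 14 probe sets come from 8 genes on the same arrays, so these are not separate results. Several of the signs changed with 1 array left out, as given below. The 95% interval of the difference, with the spread pooled over all 9 arrays, stayed within 2-fold either way for 10 of the 14. For the others these data bound the difference less tightly: HAND1 at -1.12 to 1.09 on the log2 scale, ISL1 at -0.70 to 1.40, NHLH2 by 215228_at at -0.77 to 1.11, and GATA3 by 209602_s_at at -0.45 to 1.01. CHAT itself, by its 1 probe set, read 1066, 423 and 1067 on the 82-kDa arrays, 256, 175 and 177 on the 69-kDa arrays, and 148, 125 and 114 on the arrays labelled wild type. Nothing in the sources says whether that probe set covers the transgenes.

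For HAND1 and ISL1 replicate 1 stood apart from replicates 2 and 3. Set side by side by replicate number, the 82-kDa minus 69-kDa difference of HAND1 was 1.95 on the log2 scale for number 1, -0.98 for number 2 and -1.01 for number 3. For ISL1 it was 1.18, -0.038 and -0.087. With replicates 2 and 3 of each group only, an alternative that leaves 6 arrays, HAND1 was lower in the 82-kDa line than in the 69-kDa line (log2 -0.99, adjusted p = 0.0059). It was the 1 member called there, beside 454 of all 22215 probe sets. This alternative leaves out the replicate in which HAND1 ran the other way, so its p-value does not hold that spread. With all 9 arrays the HAND1 difference was -0.013 (limma, unadjusted p = 0.98).

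**Figure D3:**
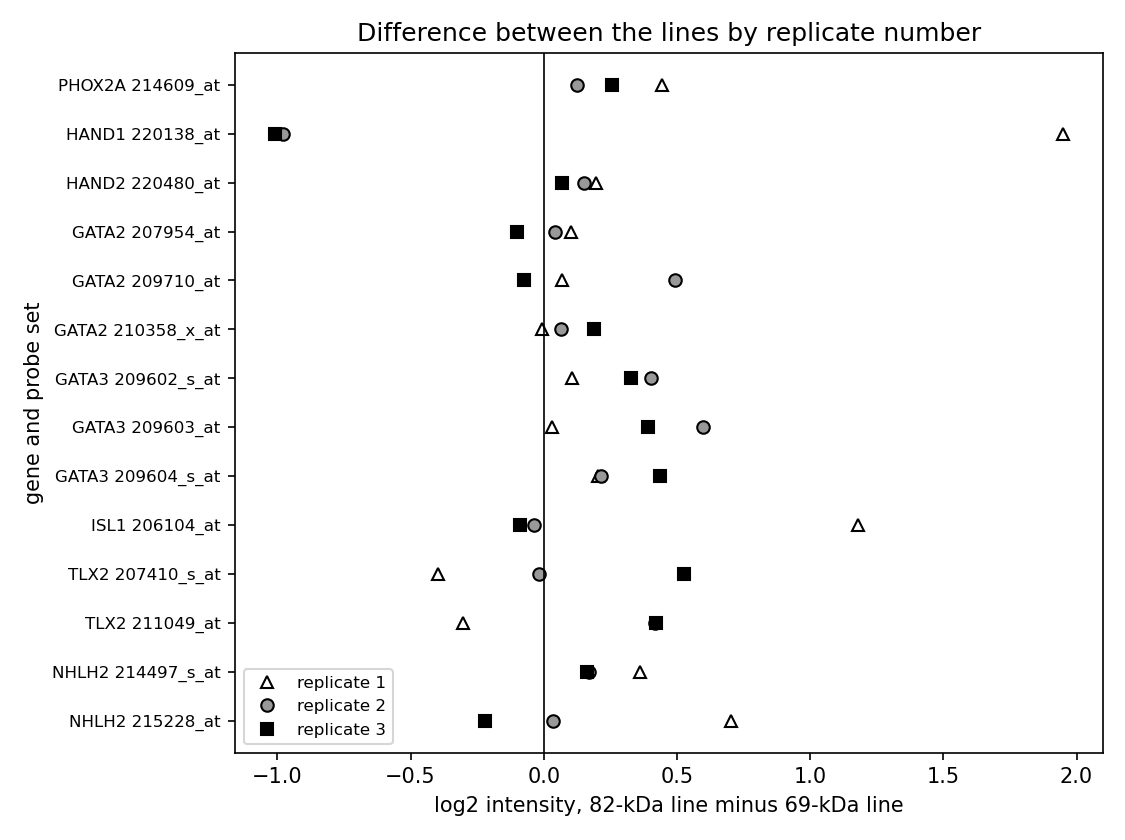
Difference in log2 intensity between the 82-kDa and the 69-kDa array of the same replicate number (horizontal axis) for the 14 probe sets (vertical axis), with a symbol shape for each number. HAND1 reads 1.95 for number 1 and about -1 for numbers 2 and 3, and ISL1 and NHLH2 by 215228_at also stand out for number 1.

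Replicate 1 was the lowest array of both lines for 10 of the 14 probe sets (71.4%), against 25.7% of all probe sets. Among probe sets called higher in both lines the share was 81.8% for the members (9 of 11) and 38.2% for all (767 of 2010). Replicate 1 was the lowest array labelled wild type for 5 of the 14 (35.7%), against 32.4% of all. In the 69-kDa line replicates 2 and 3 averaged 3.73 times replicate 1 for ISL1, 3.01 times for NHLH2 by 215228_at, 2.38 times for HAND1 and 1.73 times for PHOX2A. In the 82-kDa line these ratios were 1.58, 1.74, 0.31 and 1.46. The ratio of 3' to 5' ACTB signal, a measure of RNA integrity, was 0.703 and 0.709 on replicate 1 of the lines and 0.831 to 1.08 on the other 7 arrays, and the same ratio for GAPDH was 0.950 to 1.06 on all. The part of RNA quality in these patterns was not tested.

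By the likeness of their profiles over the 9 arrays, each member by its brightest probe set, except GATA2, whose brightest one varied less than 2-fold, was set against all other genes with 1 symbol. The measure was the root-mean-square difference of mean-centred log2 values, where 0 means the same profile. HAND2 was nearest to DIXDC1 (0.049) and GINS3 (0.077), and it also varied least among the members compared. PHOX2A was nearest to CD24 (0.13) and DCHS1 (0.22), GATA3 to TWIST1 (0.18) and SATB1 (0.19), and TLX2 to SYT1 (0.22) and GPX7 (0.23). HAND1 was nearest to LRRTM2 (0.26) and IGFBP5 (0.27), ISL1 to NBEA (0.29) and SLC6A2 (0.30), and NHLH2 to ELAVL4 (0.33) and CD24 (0.36). Between members the smallest values were 0.42 for NHLH2 and TLX2, 0.44 for GATA3 and ISL1, and 0.47 for PHOX2A and ISL1. The points share arrays and the split between lines and arrays labelled wild type.

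Other regulators of the lineage moved in both directions. Over 1 probe set per gene, 11.8% of all genes were higher and 18.5% lower in the 82-kDa line, and 11.7% and 17.7% in the 69-kDa line. Of 16 other sympathoadrenal regulators measured, 7 were higher and 3 lower in the 82-kDa line (median log2 difference 0.69), and 6 and 3 in the 69-kDa line (0.51). INSM1, a zinc finger factor of sympathoadrenal and endocrine precursors, was 16.4-fold higher in the 82-kDa line (log2 4.03, SE 0.095, adjusted p = 4.7e-08) and 20.0-fold higher in the 69-kDa line. The homeodomain factor MEIS1 was 18.2-fold and 16.8-fold higher. HEY1, a repressor downstream of Notch, was 14.2-fold lower (log2 -3.83, SE 0.15, adjusted p = 5.3e-07) and 12.7-fold lower.

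Among 13 measured partners and cofactors of basic helix-loop-helix, GATA and LIM factors, by the brightest probe set of each, 6 were higher and 0 lower in the 82-kDa line and 5 and 0 in the 69-kDa line (0 lower also at an unadjusted p under 0.05). The shares over all genes were 11.8% and 18.5%, and 11.7% and 17.7%, in the same order. Other probe sets of SSBP2 (203787_at) and PBX2 (202875_s_at) were lower, by 0.97 and 1.08 on the log2 scale in the 82-kDa line and by 1.16 and 1.04 in the 69-kDa line (largest adjusted p 0.0073). The probe sets of PBX2 disagreed. By 211096_at it was higher, by 0.31 and 0.37 (adjusted p = 0.043 and 0.020), and 211097_s_at passed in neither line. With replicates 2 and 3 only, 7 were higher and 1 lower in the 82-kDa line and 8 and 2 in the 69-kDa line, where 44.1% and 43.5% of all genes passed. The E proteins TCF4 and TCF12, with which HAND and NHLH factors form dimers, were 4.41-fold and 4.47-fold higher in the 82-kDa line and 4.63-fold and 4.53-fold higher in the 69-kDa line (largest adjusted p 4.9e-05). A dimmer TCF12 probe set differed by 0.13 in the 82-kDa line (adjusted p = 0.43). SSBP3, which binds the cofactors of LIM factors, was 4.12-fold and 3.71-fold higher. The 4 ID proteins, which hold E proteins away from DNA, divided: ID4 was 4.94-fold and 6.36-fold lower, ID3 was 3.27-fold and 2.97-fold lower, and ID1 was 2.38-fold and 2.07-fold higher (largest adjusted p 0.043).

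Of 15 relatives from the members' own families, 3 were higher and 3 lower in the 82-kDa line and 2 and 3 in the 69-kDa line. The shares over all genes were 11.8% and 18.5%, and 11.7% and 17.7%, in the same order. GATA6, a GATA factor of heart and endoderm, ran opposite to GATA3: it read 316 to 357 on the arrays labelled wild type and 18.9 to 20.7 on the 6 arrays of the lines, where it was dim on all. The fitted folds, 16.9 and 16.4 lower, rest on those dim values (largest adjusted p 1.6e-08). GATA4 was 1.65-fold and 1.62-fold lower. TWIST1, a basic helix-loop-helix factor that can pair with HAND2, was 7.34-fold and 6.59-fold higher (log2 2.88, SE 0.25, adjusted p = 5.2e-05 in the 82-kDa line).

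Noradrenergic effector genes, which make, store and take up noradrenaline or mark the cells that do, were higher in part. Of 22 measured, 10 were higher and 0 lower in the 82-kDa line (1 lower at an unadjusted p under 0.05), and 10 and 1 in the 69-kDa line, with median log2 differences of 0.40 and 0.38. Over all genes 11.8% were higher and 18.5% lower in the 82-kDa line, and 11.7% and 17.7% in the 69-kDa line. The granins SCG3 and CHGB, proteins of dense-core vesicles, were 19.6-fold and 7.44-fold higher in the 82-kDa line and 18.5-fold and 7.20-fold higher in the 69-kDa line. On the arrays labelled wild type SCG3 read 20.1 to 23.1 and was dim on all 3, and CHGB read 45.3 to 73.8 and was dim on 2, so these folds rest on dim values. CYB561, a membrane protein of chromaffin vesicles, was lower by 209163_at in both lines (log2 -1.31 and -1.17, adjusted p = 0.00085 and 0.0016). It was also lower by 209164_s_at (log2 -0.82 and -0.81, adjusted p = 0.0012 and 0.0014). Its probe sets 207986_x_at and 210816_s_at passed in neither line (smallest adjusted p 0.47). None of these was the brightest CYB561 probe set, which the counts above use. By the brightest probe sets 0 of the 22 genes were lower in the 82-kDa line. SLC6A2, the noradrenaline transporter, was 4.88-fold and 4.96-fold higher (largest adjusted p among SCG3, CHGB and SLC6A2 3.2e-05), and 3 of its 6 other probe sets passed in each line. DDC, the decarboxylase that makes dopamine, was 4.18-fold and 4.92-fold higher (log2 2.06 and 2.30, adjusted p = 0.0092 and 0.0053). With replicates 2 and 3 only these log2 differences were 1.86 and 2.93, while the dimmer DDC probe set passed with all arrays in the 69-kDa line alone (adjusted p = 0.068 and 0.030).

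TH, the rate-limiting enzyme of the pathway and a known target of PHOX2A, read 38.8 to 55.8 over all 9 arrays and was dim on each. Its fold against the arrays labelled wild type had a 95% interval of 0.889 to 1.33 in the 82-kDa line (adjusted p = 0.52) and 0.883 to 1.32 in the 69-kDa line (adjusted p = 0.57). DBH, which turns dopamine into noradrenaline, differed by 0.27 and 0.31 on the log2 scale (adjusted p = 0.24 and 0.19), and the second value passed with the replicate number as a block (adjusted p = 0.045). GCH1, which makes a cofactor of TH, differed by -0.59 and 0.0042 (adjusted p = 0.37 and 0.996). With replicates 2 and 3 only it passed in opposite directions, lower in the 82-kDa line (log2 -0.92, adjusted p = 0.00056) and higher in the 69-kDa line (0.46, adjusted p = 0.011). SLC18A2, the vesicular monoamine transporter, was dim on all 9 arrays and differed by 0.14 and -0.18 (adjusted p = 0.30 and 0.18). A dim probe set can miss a change in its transcript. TH, DBH, GCH1, SLC18A2, DDC, CYB561, SSBP2 and PBX2 were singled out after their values had been seen.

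**Figure D4:**
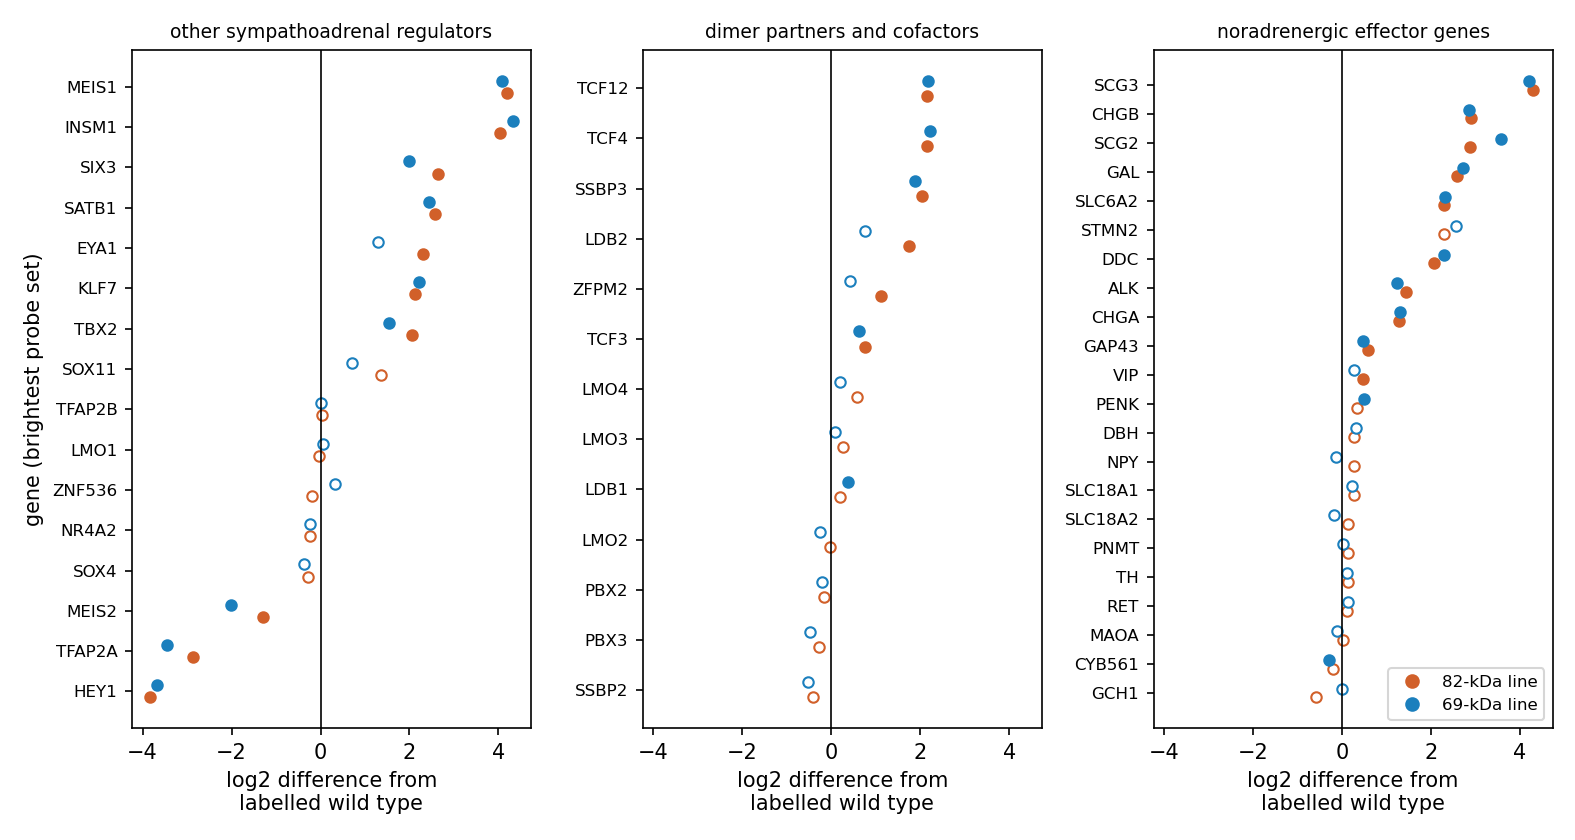
Log2 difference from the arrays labelled wild type (horizontal axis) of each gene's brightest probe set in 3 related gene lists (vertical axis); open symbols did not pass an adjusted p of 0.05. INSM1 and MEIS1 lie near 4, HEY1 lies near -4, and TH, DBH and SLC18A2 lie near 0 while SCG3 lies above 4.

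Some members also mark other tissues, so markers of those tissues were counted. Over all genes 11.8% were higher and 18.5% lower in the 82-kDa line, and 11.7% and 17.7% in the 69-kDa line. Of 11 trophoblast markers, 2 were lower and 0 higher in each line (0 higher also at an unadjusted p under 0.05), and their summed intensity was 1157 to 1186 on the arrays labelled wild type, 960 to 1197 in the 69-kDa line and 934 to 1229 in the 82-kDa line. Of 9 cardiac and limb mesoderm markers, 0 were higher (1 at an unadjusted p under 0.05) and 2 lower in the 82-kDa line, and 2 were higher and 2 lower in the 69-kDa line. Of 9 blood and lymphoid markers 0 passed in either line (1 and 0 at an unadjusted p under 0.05), and 2 were higher in each with the replicate number as a block, where 18.3% and 17.4% of all genes were higher.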

How the data were processed

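RNA labelled as from IMR32 cells was measured on 9 single-channel oligonucleotide arrays, 3 per group, with groups and replicate numbers from the sample titles. The authors deposited linear intensities, made with RMA per the submitters' processing notes. RMA corrects background, normalizes between arrays and summarises probes. It commonly returns log2 values, and the step back is not given in the sources used here. It can compress the differences of dim probe sets, which was not tested.

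Of 22283 probe sets, 68 controls were left out. The platform annotation gives 1 symbol to 19065, several to 1043 and none to 2107. Through their Entrez identifiers 19053 matched RefSeq (GRCh38.p14), which changed 0 symbols. Probe positions were not used here. Levels of probe sets were set against each other only to take the brightest of a gene, to call values dim and in a filter described below.

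The log2 of each deposited intensity entered a limma model (version 3.58.1, R 4.3.3) of 3 group means over 9 arrays, with eBayes and two-sided tests. P-values were adjusted by Benjamini-Hochberg over 22215 probe sets, with a threshold of 0.05. The fit was tested on simulated data. A fold is 2 to the power of the log2 difference. Alternatives were other scalings, a pseudocount, a filter on the mean log2 value, another moderation and a fit to the 6 arrays compared. Further ones were stricter thresholds, each array left out, replicates 2 and 3 only, and the replicate number as a block. The number of arrays limits the precision. Deviations of same-numbered arrays from their group means correlated at 0.278 to 0.573 in all 9 pairs. Number 2 of a group against number 3 of another gave 0.209 to 0.475, so the check parts replicate 1 from the others and does not show that 2 pairs with 2. The labels name no shared day, the main fit has no block, and the block is an alternative.

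All member probe sets are given. From each other list the rule named the up to 3 genes with the smallest adjusted p per comparison, 1 probe set (the brightest) per gene. Likeness named 2 genes per member. Members, lists and rules were chosen with earlier results of these data known. Counts of the lists under the block and with replicates 2 and 3 were added after seeing the data.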

Additional observations from a re-analysis of the deposited data

How the results depend on the processing

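For the 24 called member differences from the arrays labelled wild type, 404 values came from up to 17 other settings. Of these, 403 kept direction and call, and 1, of GATA2 by 209710_at, lost its call without replicate 1 labelled wild type. The largest adjusted p of a higher member in any setting was 0.026. Of these folds only that of ISL1 in the 69-kDa line moved by over 1.5 times, to 10.2 without replicate 1 of that line and to 10.3 with replicates 2 and 3 only. With the replicate number as a block, the member counts were again 12 against the arrays labelled wild type in each comparison and 0 between the lines, and the paired counts over all probe sets were 8486 and 8107. The filter on the mean log2 value, which is not the dim call used above, kept probe sets at or above the median of all. It left 11 of the 14 member probe sets, 10 of them called. Over all probe sets the calls were 3813 and 3871 at an adjusted p of 0.01, and 1992 and 2016 with at least a 2-fold difference, in the 82-kDa and the 69-kDa line. Between the lines there were 454 with replicates 2 and 3 only, 1 of them a member, and 0 to 36 with 1 array left out: 36 without replicate 1 and 1 without replicate 2 of the 82-kDa line, 8 without replicate 1 of the 69-kDa line.

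Differences that had not passed changed sign as follows, and the cause was not tested. GATA2 by 210358_x_at in the 82-kDa line was -0.0073 with median centring, -0.011 with quantile normalization and -0.045 to 0.082 with 1 array left out. Between the lines HAND1 was 0.061 with quantile normalization. With replicates 2 and 3 only, GATA2 by 207954_at was -0.030, ISL1 -0.063 and NHLH2 by 215228_at -0.092 between the lines. With 1 array left out, these line differences spanned -0.58 to 0.30 for HAND1, -0.055 to 0.31 for HAND2, -0.14 to 0.12 for GATA2 by 207954_at and -0.28 to 0.68 for ISL1. They spanned -0.17 to 0.18 for TLX2 by 207410_s_at, -0.074 to 0.52 for TLX2 by 211049_at, and -0.36 to 0.47 for NHLH2 by 215228_at.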

Other observations

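Genes of the early neural crest, which precede the sympathoadrenal factors in development, divided. Of 14 early neural crest and Schwann cell precursor genes measured, 2 were higher and 5 lower in each line than on the arrays labelled wild type. Of all genes 11.8% were higher and 18.5% lower in the 82-kDa line, and 11.7% and 17.7% in the 69-kDa line. SOX9, a factor of crest progenitors and many other tissues, was lower by 1.35 (SE 0.19, adjusted p = 0.00096) in the 82-kDa line and by 2.20 (adjusted p = 5.9e-05) in the 69-kDa line on the log2 scale. MSX2, a homeobox gene that responds to BMP, was lower by 1.76 and 1.71, with readings dim on all 6 arrays of the lines, although its probe set 205556_at differed by 0.084 and 0.034 (adjusted p = 0.51 and 0.80). SNAI2, a repressor that crest cells use as they leave the neural tube, was 9.95-fold higher in the 82-kDa line and 7.13-fold higher in the 69-kDa line (adjusted p = 0.00099 and 0.0024).

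Regulators of the mesenchymal state of neuroblastoma cells, the counterpart of the noradrenergic one, were likewise mixed. Of 15 measured, 2 were higher and 5 lower in each line, beside the shares of all genes just given. NOTCH2 was 4.06-fold and 4.54-fold lower, although a dimmer probe set differed by -0.13 (adjusted p = 0.42) in the 82-kDa line. ZEB1, a repressor of epithelial genes, was 5.03-fold and 6.05-fold higher (largest adjusted p 7.4e-05). YAP1, a growth regulator, was lower by 0.91 and 1.06 on the log2 scale.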
